A study of Mus musculus with 2 samples.

Results

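The cytosolic ribosomal protein genes of mouse gastrocnemius are described here: 81 genes, of 55536 annotated genes measured, chosen by symbol (Rpl or Rps with a number and at most a short suffix, Rplp0 to Rplp2, and Rpsa) and by having a transcript annotated as protein-coding. Rpl3 and Rpl3l were left out by that rule. The rule reads symbols and annotation, not measured values. The members comprised 42 genes of the large subunit, 31 of the small subunit, 3 of the stalk and 5 paralogs named after another member (Rpl7l1, Rpl10l, Rpl22l1, Rpl39l and Rps27l). They lay on 19 chromosomes, with 4 of them on the X.

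The gastrocnemius is the main muscle of the calf, and total RNA-seq was run on it in 2 male mice, with 1 library made from 300 ng of RNA of each. The animals were B6Cast F1 hybrids (B6CASTF1/J) aged 25 days. The labels name no treatment and no mutant allele, and they give 1 group, so the animals are called animal 1 and animal 2. The data give levels and the spread between 2 libraries, and hold no comparison of conditions. Both carry the same donor entry, although the labels number them as different males.

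A ribosomal protein is one of the many small, mostly basic proteins that fold onto ribosomal RNA to make the small subunit, which decodes the messenger RNA, and the large subunit, which joins the amino acids. The stalk is a mobile arm of the large subunit that recruits elongation factors. Leaving the paralogs aside, each ribosome takes a single copy of nearly every member, with the stalk proteins Rplp1 and Rplp2 as the exception. Their messenger RNAs are short, begin with a run of pyrimidines (the terminal oligopyrimidine or TOP motif), and are translated under the control of mTOR signalling. Ribosomal protein genes have left the mouse genome full of processed pseudogenes, intronless copies made from reverse-transcribed messenger RNA.

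The libraries held 35098487 expected counts in animal 1 and 37428588 in animal 2, and were quantified in 2 ways by the depositors, called here the first tables and the second quantification. TPM, the unit of level used throughout, is corrected for length and scaled to a fixed total over all entries. A pair of signal-recognition-particle RNA genes, Rn7s1 and Rn7s2, held 26.6% of the TPM total in animal 1 and 29.8% in animal 2 by the first tables, and under 0.001% in the second quantification, so TPM of other genes was lower in the first. Muscle fibre markers (Acta1, Ckm, Mylpf, Tnnt3, Myh4 and Atp2a1) summed to 90774 and 90831 TPM in animals 1 and 2. Markers of other cells summed to far less: 5 fibroblast genes to 1735 and 1140, 3 erythroid genes to 397 and 376, 5 Schwann cell genes to 53.3 and 107, 5 endothelial genes to 48.7 and 56.97, 5 macrophage genes to 20.3 and 19.6, and 3 satellite cell genes to 6.69 and 7.95 TPM. None of these 32 markers was at 0. In bulk tissue, fewer cells of a type and less RNA per cell cannot be told apart.

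Ribosomal protein messenger RNAs were abundant in both animals. Of the 81 members, 79 stood at 1 TPM or more in both libraries, and the same 79 stood at 5 TPM or more. The median member had 130.6 TPM in animal 1 and 142.9 TPM in animal 2, a mean of 136.8 ± 8.70 (SD, n = 2). The 9937 nuclear protein-coding genes detected in both animals had a median of 6.80 ± 0.361 TPM, and the 78 mitochondrial ribosomal protein genes, whose products serve the separate ribosome of that organelle, had 20.6 ± 1.26 TPM. A mean of 100 TPM or more was reached by 56 members, out of 438 nuclear protein-coding genes at that level.

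Summed, the members took 3.04% of nuclear protein-coding TPM in each animal. The same sum was 1.18% and 1.23% of all TPM in animals 1 and 2. As a share of nuclear protein-coding expected counts, a measure not corrected for length, it was 0.766% and 0.755%. Mitochondrial ribosomal proteins took 0.511% and 0.536% of nuclear protein-coding TPM.

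Levels of single members spanned a wide range although the ribosome takes most of them in equal numbers. The middle 50% of members lay between 88.1 and 198.7 TPM, and the 10 highest held 25.2% of the members' summed TPM. Across the 79 detected members the order of levels was nearly the same in both animals (Spearman rho 0.98 across genes, which are not independent replicates). The plot of levels in each animal shows this order.

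**Figure D1:**
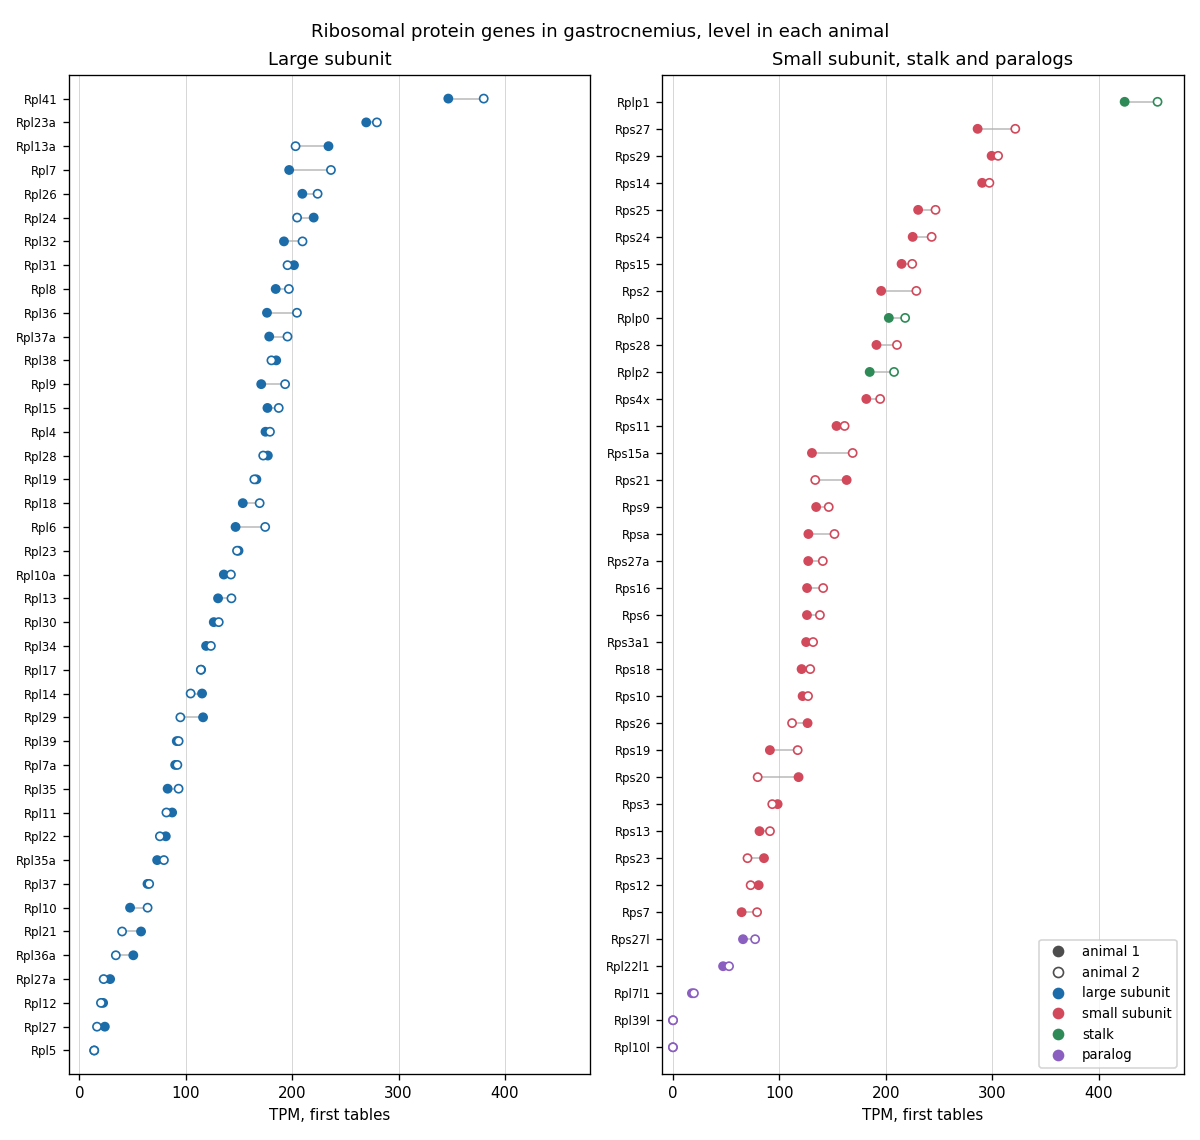
Level of 77 of the 81 members in TPM of the first tables (horizontal axis, linear) in animal 1 (filled) and animal 2 (open), ordered by mean within the large subunit (left) and within the small subunit, stalk and paralogs (right). The distance between the animals was small beside the distance between members: Rplp1 and Rpl41 headed the order, while Rpl5 at 14.0 TPM was the lowest member that is not a paralog.

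The stalk proteins were high. Rplp1, an acidic protein of the stalk tip, had 424.4 TPM in animal 1 and 455.3 in animal 2, the highest level of any member in the first tables. Its partner at the tip, Rplp2, had 184.9 and 207.8 TPM, and Rplp0, which anchors both to the large subunit, had 202.8 and 218.2 TPM. The levels of Rplp2 and Rplp0 overlapped between animals, whereas Rplp1 stood far above each of them in both. In the second quantification the order was another, with Rplp0 at 480.6, Rplp1 at 409.8 and Rplp2 at 203.8 TPM on average, and Rpl41 stood above all 3 at 783.2 TPM.

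Among large subunit proteins, whose median was 143.4 ± 3.00 TPM, the highest was Rpl41 (chr10, minus strand), one of the smallest known proteins, with 346.7 TPM in animal 1 and 380.0 TPM in animal 2. Rpl23a, which sits at the exit of the peptide tunnel, had 269.6 and 279.6 TPM. These levels did not overlap between the genes. At the other end stood Rpl5, which carries a small ribosomal RNA into the large subunit and binds the p53 regulator Mdm2, with 14.1 and 14.0 TPM. Close above it were Rpl27 with 23.97 and 16.6 TPM, Rpl12, a protein of the stalk base, with 22.4 and 20.3 TPM, and Rpl27a with 28.9 and 22.9 TPM. Rpl36a (50.7 and 34.3 TPM), Rpl21 (58.0 and 40.2 TPM) and Rpl10 (47.7 and 64.2 TPM) followed. Rpl5 was below all of these in both animals. The range of Rpl27 overlapped those of Rpl12 and Rpl27a, of which Rpl12 was the lower in both animals. The ranges of Rpl36a, Rpl21 and Rpl10 ran into one another and stood above them.

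Small subunit proteins had a median of 138.5 ± 11.2 TPM and, in the first tables, a narrower range, with none below 71.8 TPM on average. In the second quantification the lowest mean was 75.9 TPM in the small subunit and 90.6 TPM in the large. Rps27 had 286.3 TPM in animal 1 and 321.7 in animal 2, Rps29 had 299.4 and 305.5, and Rps14 had 290.5 and 297.3. The range of Rps27 covered those of the other two, and Rps29 was above Rps14 in both animals. Rps25 (230.4 and 246.7 TPM) and Rps24 (225.3 and 243.1 TPM) stood below them, with ranges that overlapped each other. Rps7 was lowest in the first tables, with 64.5 and 79.1 TPM. The order of these genes holds for the first tables alone. In the second quantification Rps24 averaged 521.1 TPM, above Rps14 at 438.9, Rps27 at 421.8, Rps25 at 287.5 and Rps29 at 230.9 TPM, and Rps7 at 147.2 TPM was above Rps3, a protein of the messenger RNA entry channel named after its values were seen, at 75.9 TPM. Rps6, the substrate of S6 kinase and a common readout of mTOR activity at the protein level, had 125.9 and 138.1 TPM, close to the median of its subunit.

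The paralogs were mostly low. Rps27l had 65.8 TPM in animal 1 and 77.2 in animal 2, or 23.0% and 24.01% of the level of Rps27. Rpl22l1 had 47.1 and 52.7 TPM, or 58.0% and 69.6% of Rpl22, whose own levels were 81.3 and 75.7 TPM. Rpl7l1 had 17.9 and 19.7 TPM, or 9.05% and 8.34% of Rpl7. Among the paralogs that are members, Rpl22l1 thus came closest to its partner.

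The remaining paralogs, both known for their expression in the testis, were at or near 0. Rpl10l, an autosomal counterpart of the X-linked Rpl10, had 0 counts in both libraries, which allows up to 3 counts or 0.0855 CPM in animal 1 and 0.0802 CPM in animal 2 (CPM is counts scaled to the library total). Rpl39l had 0 counts in animal 1 and 3 counts in animal 2, against 91.6 and 93.3 TPM for Rpl39. Rps4l, a further paralog by name, has no protein-coding transcript in the annotation and is not a member. It had 0.76 and 1.08 TPM, while Rps4x had 181.7 and 194.7 TPM.

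Some ribosomal proteins carry symbols outside the rule. Fau, a fusion of a small subunit protein with a ubiquitin-like domain, had 133.7 TPM in animal 1 and 123.8 TPM in animal 2, and Rack1, a scaffold on the small subunit, had 119.7 and 125.6 TPM. Rpl3 had 21.8 and 18.9 TPM and its muscle paralog Rpl3l had 275.3 and 302.8 TPM, so that the level of Rpl3l lay among the highest members and that of Rpl3 among the lowest.

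The level of some large subunit genes differed several-fold between the quantifications. Of the 79 detected members, 72 were lower in the first tables than in the second quantification, with a median log2 difference of -0.82 (first over second), while 5874 other nuclear protein-coding genes at a mean of 5 TPM or more had a median of -0.51. A level more than 2-fold lower in the first tables was found for 30 members, or 37.97%, against 6.88% of the other genes. With TPM rescaled over nuclear protein-coding genes, which removes the signal-recognition-particle RNAs from the total, 8 members (10.1%) were more than 2-fold lower, against 0.272% of the other genes. The median effective length of a member (the length used for TPM) was 484 bases in the first tables and 341 bases in the second quantification.

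The largest gap was at Rpl27, with 23.97 and 16.6 TPM for animals 1 and 2 by the first tables, and 220.4 and 231.3 TPM by the second quantification, 11.1 times as much. For Rpl27a the second quantification gave 263.3 TPM in animal 1 and 254.8 TPM in animal 2, which is 9.998 times the first. For Rpl5 it gave 104.1 and 116.9 TPM, or 7.88 times, and for Rpl10, a late-joining protein near the catalytic centre, 316.5 and 370.4 TPM, or 6.14 times. Rps23, a protein of the decoding centre, followed at 4.38 times and Rpl12 at 4.24 times. In these genes both animals read high in the second quantification and both read low in the first. Rpl36 went the other way, with 176.3 and 204.5 TPM in the first tables against 109.9 and 91.8 TPM in the second.

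**Figure D2:**
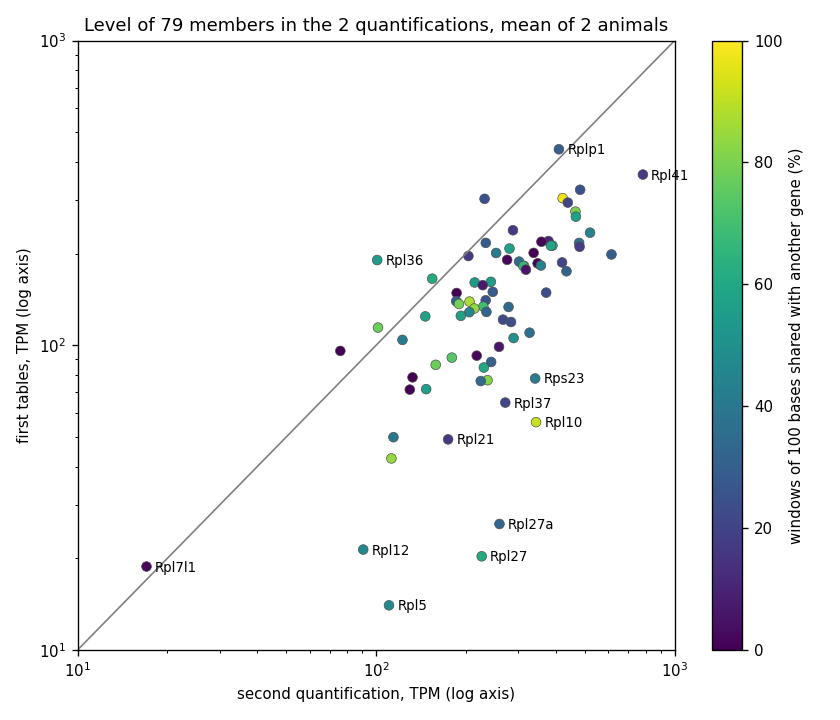
Mean TPM over the 2 animals of each of the 79 detected members in the first tables (vertical, log axis) and in the second quantification (horizontal, log axis), with the line of equality and with colour for the percent of 100-base windows shared with another gene. Below the line lie 72 members, by amounts that vary, 30 of them by more than 2-fold. Rpl27, Rpl27a, Rpl5, Rpl10, Rps23 and Rpl12 lie furthest below, at 4.24 to 11.1 times. Colour and distance from the line do not run together (Spearman rho -0.07 across 79 genes after rescaling). The colour counts windows over the whole reference transcript, untranslated ends included. Of the genes named, all but Rps23 have their whole coding sequence in another gene. With the TPM of genes that share a window added to each member, in both quantifications, 12 members lay more than 2-fold below. The part of shared sequence in the distance was not tested.

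Many members have copies elsewhere in the genome with the same sequence. Of 465 other genes that shared at least one window of 100 bases with the reference transcript of a member, 450 were annotated as pseudogenes and 14 as protein-coding. A member shared a median of 34.2% of its windows, 28 members shared more than 50%, and 8 members shared none. For 19 members the whole coding sequence occurred, without a mismatch, in the transcript of another gene. The start of the coding sequence (60 bases, with the start codon in capitals, from GENCODE M21 transcripts on mm10) is shown for 3 of them beside a copy, since a read within it matches both genes.
Rpl5 (chr5:107900502-107909005, plus strand): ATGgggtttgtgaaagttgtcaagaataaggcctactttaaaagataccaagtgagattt
Gm15500 (chr7:114705217-114706235, minus strand): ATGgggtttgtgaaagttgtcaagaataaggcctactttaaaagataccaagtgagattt
Rpl27 (chr11:101442298-101445529, plus strand): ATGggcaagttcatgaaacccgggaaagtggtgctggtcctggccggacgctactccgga
Gm11518 (chr11:94037218-94037628, minus strand): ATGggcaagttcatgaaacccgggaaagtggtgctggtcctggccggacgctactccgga
Rpl10 (chrX:74270812-74273135, plus strand): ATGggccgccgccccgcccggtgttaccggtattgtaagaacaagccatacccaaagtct
Rpl10-ps3 (chr9:50344201-50344968, minus strand): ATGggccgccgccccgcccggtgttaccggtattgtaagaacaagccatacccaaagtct
The identity ran through all 891 bases of the Rpl5 coding sequence (stop codon left out), all 408 of Rpl27 and all 642 of Rpl10, with 0 mismatches in each.

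In the first tables several of these copies stood above their member. Gm15500 had 140.6 TPM in animal 1 and 150.6 in animal 2, about 10 times its parent Rpl5. Gm11518 and Rpl27-ps3, which carry the same coding sequence, each had 81.0 and 87.5 TPM in the first tables and 0 in the second quantification. Rpl10-ps3, annotated as protein-coding despite its name, had 126.2 and 132.9 TPM in the first tables and 0 in the second. Gm10275, with the coding sequence of Rpl12, had 140.6 and 160.4 TPM in the first tables and kept 143.6 and 154.3 TPM in the second, and Gm15500 likewise kept 155.0 and 169.6 TPM. For Rpl27 and Rpl10 the level thus moved between gene and copy with the quantification, whereas for Rpl5 and Rpl12 the copy was above its parent in both.

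Over all members, the copies summed to 31.7 and 33.1 TPM per 100 member TPM in animals 1 and 2 in the first tables and to 13.1 and 13.5 in the second quantification. Over the 300 genes named as ribosomal protein pseudogenes by symbol, whether or not they share a window, the figures were 14.3 and 14.9 in the first tables and 4.03 and 4.51 in the second. The copies exceeded their member in 16 cases in the first tables and in 3 in the second. The deposited posterior SD, a measure of how far a count could shift between entries, was 0.826% and 0.769% of the count in the median member in animals 1 and 2. It was widest in Rpl10 (11.2% and 8.82%) and Rps12 (9.72% and 12.3%). Transcription of a copy and reads of the member assigned to it cannot be told apart in these tables.

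**Figure D3:**
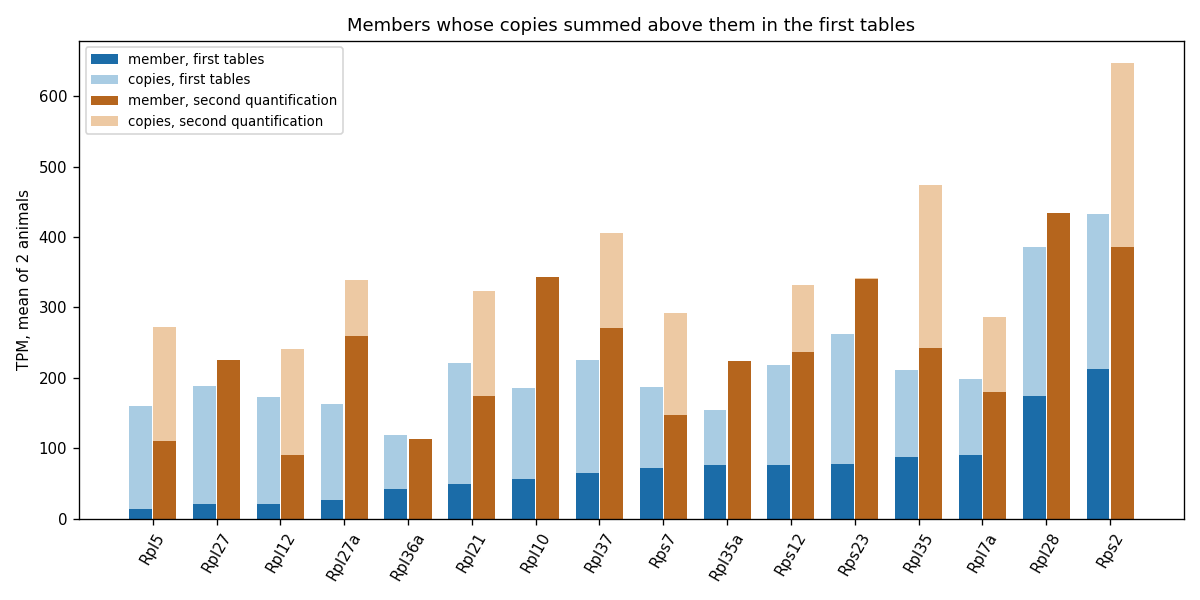
TPM, mean over the 2 animals, of the 16 members whose copies summed above them in the first tables (dark bars), with the copies stacked on top (light bars), in the first tables (blue, left) and the second quantification (brown, right). Rpl27, Rpl10, Rpl28, Rpl35a, Rpl36a and Rps23 had next to no copy level in the second quantification, while Rpl5, Rpl12, Rpl35 and Rps2 kept theirs.

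Adding the copies to each member narrowed the spread of levels. Leaving out the paralogs, 76 members had a log2 standard deviation across genes of 0.49 with copies added and 0.94 without in the first tables, and of 0.57 with copies added and 0.67 without in the second quantification. The lowest of the 76 was then Rpl22, which shares no window, at 78.5 TPM instead of Rpl5 at 14.0. With copies added 71 of the 76 lay within 2-fold of their median, and without them 61 did. By subunit, the log2 standard deviation in the first tables was 1.09 for the large and 0.60 for the small. With copies added it was 0.45 for the large and 0.51 for the small, so the narrower range of the small subunit did not hold. The median member reached 187.9 TPM with copies added. This sum was chosen after the values were seen, and it is an upper reading, since a copy may be transcribed in its own right.

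Which transcript of a member carried its level was read from the transcript tables. In the median member, transcripts annotated as protein-coding held 98.6% and 98.5% of TPM in animals 1 and 2 in the first tables, and 90.7% and 89.8% in the second quantification. More than 90% was held by such transcripts in 51 members in the first tables, 32 of which also passed in the second. In 15 members they held under 50% in the first tables, and in 9 of these under 50% in both quantifications. Summed over members, 18.02% of TPM in animal 1 and 17.4% in animal 2 lay on transcripts without an annotated complete reading frame or with one marked for decay.

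Rps16 was the extreme case, with 1.63% and 1.74% of its TPM on its protein-coding transcript in animals 1 and 2 in the first tables. Most of the rest was on Rps16-203, a retained-intron transcript of 518 bases, with 85.4 and 95.9 TPM, while the protein-coding Rps16-201, annotated at 1109 bases, had 2.06 and 2.46 TPM. For Rps20 the retained-intron transcript Rps20-201 of 582 bases had 104.9 and 65.2 TPM, and the coding Rps20-203, annotated at 3706 bases, had 3.61 and 1.40 TPM. In both genes the transcript that held the level was shorter than the annotated coding one.

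Rps26, a protein of the messenger RNA exit channel, had 121.2 and 106.4 TPM on the retained-intron Rps26-202 of 596 bases and 5.11 and 5.34 TPM on the coding Rps26-201 of 681 bases. Rpl35 was read mainly as Rpl35-203, a processed transcript of 541 bases, with 77.4 and 89.6 TPM. These genes too were read mainly on transcripts not annotated as coding. The second quantification read some of these differently. It gave protein-coding transcripts 51.4% of Rps26 on average, but 15.0% of Rps16 and 0.317% of Rps20.

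**Figure D4:**
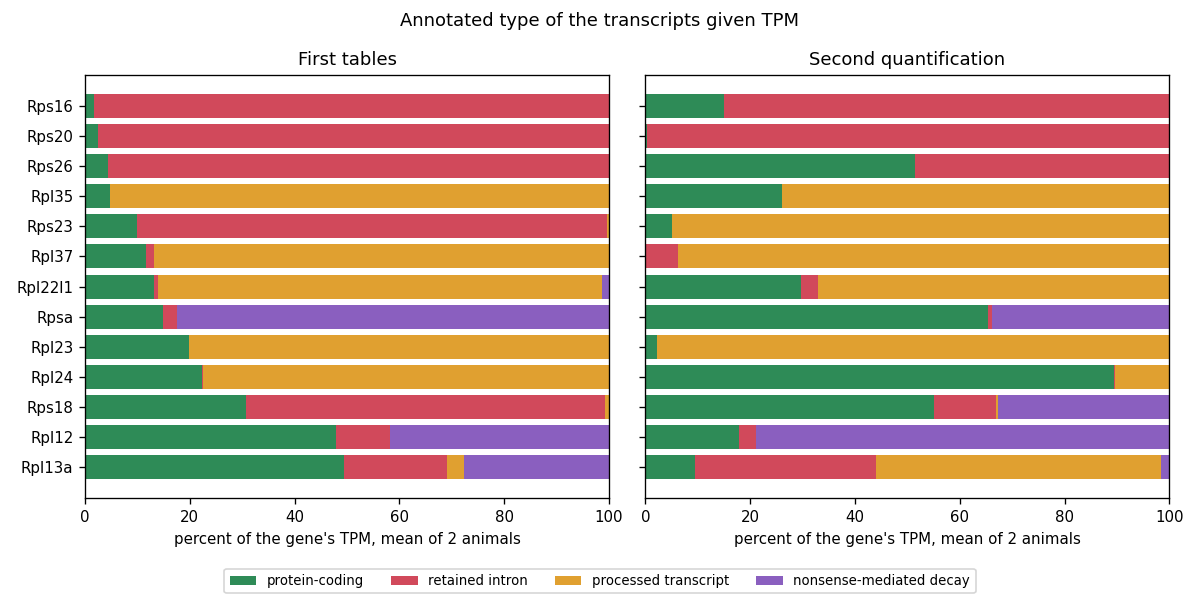
Percent of TPM (mean over the 2 animals) by annotated transcript type for 13 of the 15 members with under 50% on protein-coding transcripts in the first tables (left), and for the same genes in the second quantification (right). Rps16, Rps20, Rps23, Rpl35 and Rpl37 stayed under 50% in both, while Rpl24 was mostly protein-coding in the second.

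The top transcript was the same in both animals for 72 of 79 members in each quantification, but the same in all 4 readings for only 32. Rps23 shows the split: the retained-intron Rps23-202 had 76.4 and 63.2 TPM in the first tables and 0 in the second, where the processed transcript Rps23-203 had 313.7 and 334.6 TPM. Rps24, an alternatively spliced gene, was led by the coding Rps24-205 in both, with 107.7 and 99.7 TPM in the first tables and 247.1 and 216.2 TPM in the second. Levels of single transcripts of these genes therefore depended on the quantification more than on the animal.

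The start sites of 62 members had an entry in the RefSeq promoter table (GRCm38.p6). A run of at least 8 pyrimidines on the sense strand between 30 bases before and 20 after the start was present in 32 of them (51.6%). It was present in 22.6% of 16460 other protein-coding genes and in 22.9% of all 27025 genes with an entry. For each motif, a gene counted if any of its entries held it, so genes with more entries had more chances. The letters CTTTCC, which can lie within such a run, occurred on the sense strand of that window in 11 members (17.7%), against 2.73% of the other genes. CCGGAA, found in sites bound by ETS family factors, was searched on either strand from 250 bases before to 50 after the start, and occurred in 35 members (56.5%), against 21.4%. TATAAA on the sense strand in the 50 bases before the start occurred in 1 member (1.61%), against 3.70%. The windows of 6 of the highest members are shown, with the longest pyrimidine run in capitals. The annotated start is base 31 of each window.
Rpl41 (chr10:128549149-128549198, minus strand): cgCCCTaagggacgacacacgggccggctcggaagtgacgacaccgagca
Rps27 (chr3:90213629-90213678, minus strand): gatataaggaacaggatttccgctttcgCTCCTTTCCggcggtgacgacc
Rps25 (chr9:44407684-44407733, plus strand): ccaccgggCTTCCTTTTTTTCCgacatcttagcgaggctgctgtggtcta
Rps24 (chr14:24490648-24490697, plus strand): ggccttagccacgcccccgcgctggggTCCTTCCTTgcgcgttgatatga
Rps15 (chr10:80292401-80292450, plus strand): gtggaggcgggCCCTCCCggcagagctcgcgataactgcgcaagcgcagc
Rpl13a (chr7:45128726-45128775, minus strand): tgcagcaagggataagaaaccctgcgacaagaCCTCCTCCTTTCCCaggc
The run spans the annotated start in Rps27 and Rps24, begins just after it in Rpl13a, lies before it in Rps25 and Rps15, and is no longer than 4 bases in Rpl41. A window without such a run says only that these letters are not near that annotated start.

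Between the animals the members differed little. No condition separates the animals, and 1 library per animal leaves no spread within an animal to test against. The libraries were therefore compared as such, by a two-sided exact binomial test on expected counts scaled by TMM. Adjustment was by Benjamini-Hochberg over all genes tested. At an adjusted p under 0.05 the test called 25 of 79 members, where it called 14.4% of all 14754 genes. Of the 25, 22 were higher in animal 1 (all genes: 7.74%) and 3 higher in animal 2 (all genes: 6.64%). None of the 79 passed with a ratio over 2-fold, where 1.8% of all genes did. Among 382 other nuclear protein-coding genes that reached 100 TPM 55.0% were called (121 higher in animal 1 and 89 in animal 2), so the members' 31.6% lay above the share of all genes and below that of other abundant genes. Those 382 genes were chosen by TPM and not matched for counts, on which the test's power depends, so the shares are not a like comparison. Only 56 members reached a mean of 100 TPM, and none had more than 7937 counts in a library, against 462881 for Ckm in animal 1. These p-values cover sampling of reads alone, and compare the libraries.

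The members' median log2 ratio, with animal 1 over animal 2, was 0.05 with TMM scaling and -0.07 from deposited TPM, which flips its sign. The median of all genes tested was 0.0015 with TMM and -0.11 from TPM, so the members' median lay 0.05 and 0.04 above that of all genes. Of the 22 called higher in animal 1, 20 were also higher by TPM, and all 3 called higher in animal 2 were. The median absolute log2 ratio was 0.06 for the members and 0.07 for the 382 other abundant genes, and 65 members lay within 0.2 of 0.

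Rps20 differed most, with 1951 expected counts and 118.0 TPM in animal 1 and 1281 counts and 79.6 TPM in animal 2, a log2 ratio of counts of 0.81 (adjusted p = 4.52e-54, exact binomial test). The second quantification gave a log2 ratio of 0.70. Its reference transcript, the long Rps20-203, shares 213 windows with the copy Gm4332, which had 27.2 and 8.54 TPM in animals 1 and 2 in the first tables and 0 in the second quantification. Rpl36a had a log2 ratio of 0.67, Rpl27a of 0.63, Rpl21 of 0.63, Rpl27 of 0.52 and Rps23 of 0.43. In the second quantification the same ratios were smaller, at 0.22 for Rpl36a, 0.30 for Rpl27a, 0.14 for Rpl21, 0.07 for Rpl27 and 0.09 for Rps23, and the last 2 were no longer called. All 5 had copies above their own level in the first tables.

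Rps21 and Rpl13a, named after their values were seen, differed in both quantifications. Rps21 shares no window with another gene and had 1390 and 1206 expected counts in animals 1 and 2, a log2 ratio of 0.41 in the first tables and 0.98 in the second. Rpl13a had 3374 and 2911 counts and log2 ratios of 0.42 and 0.44. Rpl19 is a contrary case, with a log2 ratio of 0.13 in the first tables and 1.28 in the second, where it was the only member called at over 2-fold. Its copy Rpl19-ps11 moved the other way there, with 14.5 TPM in animal 1 and 169.5 TPM in animal 2. The 3 members lower in animal 1 were Rpl10 at -0.31 (-0.07 and not called in the second quantification), Rps2 at -0.13 and Rpsa, the laminin-receptor protein of the small subunit, at -0.10. Of the cell type markers, with TMM scaling, fibroblast genes (5 of 5 called, median log2 ratio 0.21), muscle fibre genes (5 of 6, 0.12) and erythroid genes (2 of 3, 0.16) were higher in animal 1. Schwann cell genes (3 of 5, -0.79) were lower. Of all genes, 7.74% were called higher and 6.64% lower, and of 382 other abundant genes 55.0% were called. Of the rest of the markers, 2 of 5 endothelial genes and 1 of 3 satellite cell genes were lower and 1 of 5 macrophage genes was higher. By deposited TPM, the called Ckm (16558.5 and 17387.2 in animals 1 and 2), Mylpf (18493.4 and 19205.2) and Col3a1 (228.76 and 229.25) were lower in animal 1. The other called fibroblast, muscle fibre and erythroid genes were higher by TPM too. The part of the markers in the members' ratios was not tested.

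**Figure D5:**
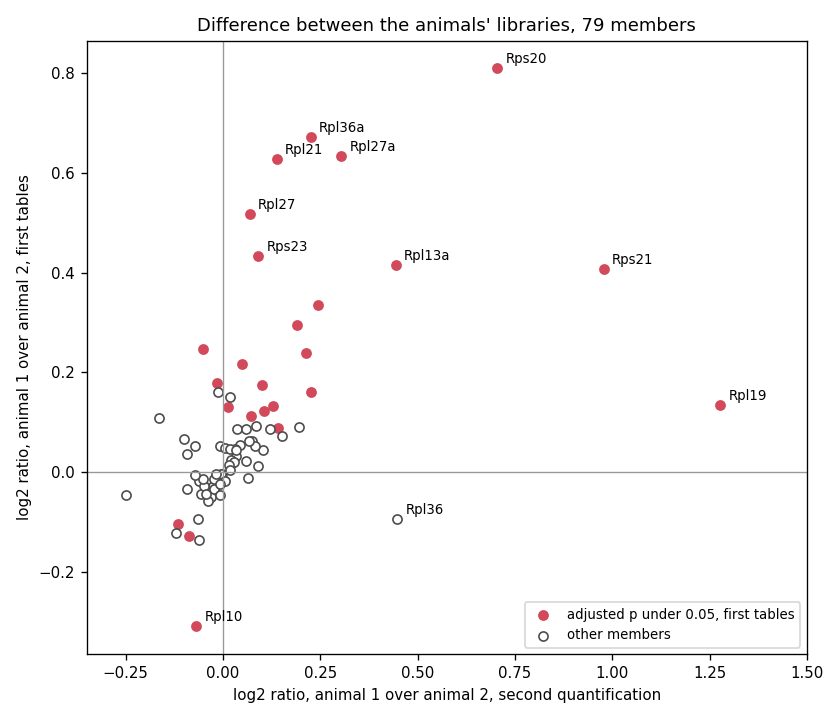
Log2 ratio, animal 1 over animal 2, of 79 members from counts of the first tables (vertical) and of the second quantification (horizontal), with members called at an adjusted p under 0.05 in the first tables filled. Most members cluster near 0; Rps20 is far from 0 on both axes, and Rpl36a, Rpl27a, Rpl21, Rpl27 and Rps23 are high mainly in the first tables.

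The lists of genes around the ribosomal proteins had lower median levels, although Tpt1 stood above every member. The counts called below are to be read beside 7.74% of all genes called higher in animal 1 and 6.64% in animal 2. All 46 ribosome biogenesis factors were detected in both animals, with a median of 8.83 ± 0.509 TPM (SD, n = 2), and 2 were called higher in animal 1 and 1 in animal 2. Highest were the nucleolar proteins Npm1 (35.9 and 40.9 TPM) and Ncl (41.1 and 32.8 TPM). The 20 genes of RNA polymerase I and its factors, which make ribosomal RNA, had a median of 5.80 ± 1.34 TPM, led by Polr1d (29.0 and 34.2 TPM) and Taf1d (30.5 and 25.6 TPM), with 1 called higher in animal 1 and 0 in animal 2. The 23 other genes known for TOP messenger RNAs had a median of 76.2 ± 0.438 TPM, led by Tpt1 (996.3 and 1158 TPM) and the elongation factor Eef2 (321.8 and 336.9 TPM). Of these 9 were called higher in animal 1 and 1 in animal 2, and their median log2 ratio was 0.07, beside 0.05 for the members on the same scale. Among 20 regulators of mTOR and TOP messages, with a median of 18.1 ± 1.24 TPM, of which Akt1s1 (40.8 and 44.1 TPM) and Eif4ebp2 (36.9 and 43.9 TPM) were highest, 2 were called higher in animal 1 and 7 in animal 2.

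Introns of members also encode small nucleolar RNAs, the guides for modification of ribosomal RNA. On the same strand within 29 members lay 56 such genes, of 1558 annotated, and 12 of them had a count in both libraries in the first tables. Gm26448 within Rpsa had 343 and 335 counts in animals 1 and 2, Snord15b within Rps3 had 120 and 116, and Snord15a within Rps3 had 99 and 82. All 56 had 0 counts in the second quantification. Of the 56, 33 are under 100 bases long and were given an effective length of 0, so no level could be assigned to them. The values of these 33 are thus set by the length cut and are not measurements of absence. The longer ones had an effective length above 0, and among them Snora3, Snora69 and Snora52 had 0 counts in both libraries. Their low counts are not read as absence either. The reason for the 0 counts of all 56 in the second quantification was not tested.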

How the data were processed

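The files hold, for 2 gastrocnemius libraries, a first gene table, a first transcript table and a second transcript table, all used as deposited. The first tables have the column layout of RSEM, per the file headers. Their expected counts (estimated counts that need not be whole), their TPM and the percent of its gene's abundance on a transcript were computed by the authors, as was a posterior SD of each count, treated here as a score. The second table has the layout of kallisto, per the file headers, and its estimated counts and TPM were also computed by the authors. The deposited descriptions name mm10 and GENCODE M21. Alignment, tool versions and strand handling: not given in the sources used here. Reads of a member and of an overlapping or antisense gene therefore cannot be told apart. The first tables' effective length is 99 bases less than the length, so transcripts under 100 bases are assigned no level. Just above that length the small effective length raises TPM. Snord15b, at 145 bases, had 90.3 and 82.4 TPM in animals 1 and 2 from 120 and 116 counts.

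For the second table, values of a gene are sums over its transcripts. Values are deposited TPM, for each animal or as mean ± SD (n = 2). For the binomial test, expected counts were rounded and scaled by TMM (edgeR 4.0.16, R 4.3.3). It was run with scipy on 14754 genes whose counts summed to at least 20. Log2 ratios used a prior count of 0.5. The test was tested on simulated data. That simulation held sampling of reads alone and scored only calls over 2-fold, so it does not bear on the smaller ratios called among members. Expected counts of detected members lay between 234 and 7214 in animal 1 and between 188 and 7937 in animal 2. Floors and p-values reflect sampling of reads alone, and reads without unique identifiers can repeat a molecule.

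Copies are genes that do not overlap a member and share at least one 100-base window, on the sense strand, with its reference transcript (protein-coding, principal by annotation). Motifs were searched as exact letters. Genes named by rule are the 10 highest and 10 lowest members, paralog pairs and stalk proteins. Up to 6 members each are named for the largest fold between quantifications, lowest coding share and largest ratio between animals. The 2 highest of each list other than the cell type markers are also named. Further members, among them Rps6, Rps7, Rps12, Rps2, Rpsa, Rpl19 and Rpl36, are examples picked outside this rule. Members and lists were chosen with earlier results of these data known. Alternatives were the second quantification, DESeq2 1.42.0 size factors, other filters and thresholds, rescaled TPM and each animal alone. Some of the genes this rule names, and their points in 2 of the plots, are not reported here, but they stay in all counts, medians and tests. Protein sequences were not analysed here.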

Additional observations from a re-analysis of the deposited data

How the results depend on the processing

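The 79 detected members were 79 at a threshold of 0.5 or 5 TPM and in the second quantification. The median member of 136.8 TPM became 243.3 in the second quantification, 344.1 with TPM rescaled over nuclear protein-coding genes, 187.9 with copies added and 145.6 without the paralogs (both chosen after seeing the data), and 130.6 to 142.9 with either animal left out. The members' 3.04% of nuclear protein-coding TPM became 3.46% in the second quantification, 1.21% of all TPM and 0.760% of counts, and stayed at 3.04% with either animal left out. The median coding-transcript share of 98.5% became 90.3% in the second quantification (98.5% to 98.6% with an animal left out). Per 100 member TPM, pseudogenes by symbol went to 4.27 in the second quantification, against 14.6 (14.3 to 14.9), and copies to 13.3, against 32.4 (31.7 to 33.1). Paralog percentages in the second quantification were 7.37% for Rpl7l1 (8.34% to 9.05% with an animal left out), 86.3% for Rpl22l1 (58.0% to 69.6%) and 30.7% for Rps27l (23.0% to 24.01%), and with copies added 11.5% for Rpl7l1 and 22.8% for Rps27l.

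The median log2 ratio between animals was 0.05 with TMM, 0.05 with DESeq2 size factors, 0.020 in the second quantification and -0.073 as a ratio of TPM. The 25 called members (14.4% of all genes) were 25 with DESeq2 size factors (all genes 14.5%), 25 without the count filter (8.38%) and 20 in the second quantification (13.8%). Of the 25, 15 were also called there in the same direction (60% of the first list, 75% of the second), and 2 had the other sign. Of the named ratios, Rpl27, Rps23 and Rpl10 lost their call in the second quantification. The cause of these moves was not tested. With 1 library per animal, the comparison of animals has no form with an animal left out. No paired analysis was possible because the labels give 1 group. Depth limits the low members: 0 counts of Rpl10l allow up to 3.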
